A study of Mus musculus with 18 samples.

Results

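The Mettl14 knockout was compared with its control in samples labelled as embryoid bodies. Embryoid bodies are balls of cells that grow when mouse embryonic stem cells are left to differentiate without attaching to a plate. The 6 libraries were taken by their labels, 3 of the knockout and 3 of the control, out of 18 libraries in the series. The other 12 came from the same knockout with the EZH2 inhibitor GSK343 and from a Mettl3 line. The series title names METTL14 as a regulator of chromatin, and the comparison asks which transcripts differ when it is deleted.

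The knockout libraries came from Mettl14 CKO (conditional knockout) embryonic stem cells, whose treatment note lists DMSO as the vehicle. The control libraries are labelled only as Mettl14 control, and the sources used here do not tell whether they received DMSO. Both groups were C57BL/6 and were cultured with 15% FBS, 1000 U/ml LIF, 3 µM CHIR99021 (a GSK3 inhibitor) and 1 µM PD0325901 (a MEK inhibitor). They were then kept for 7 days in embryoid body medium with FBS but without LIF and the other additives, on ultra-low-attachment plates and without feeder cells. No inhibitor of EZH2 was given to these 6. The sources used here do not tell how the deletion was induced, how the control was made or whether the line is a single clone. Separate cultures are not stated for the replicates, and p-values therefore reflect the spread of these 6 samples alone, possibly a technical one.

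METTL14 and METTL3 form the core of the enzyme that adds the N6-methyladenosine (m6A) mark to mRNA, with METTL3 as the catalytic subunit and METTL14 as the RNA-binding partner. Reader proteins of the YTH family recognise the mark, and methylated transcripts are often short-lived. EZH2, the methyltransferase of Polycomb repressive complex 2 (PRC2), places the repressive mark H3K27me3, which KDM6A and KDM6B remove.

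The libraries differed in depth and in RNA composition. The 3 knockout libraries had total counts of 1303697 to 8688596, and the 3 controls 8288902 to 10285737. A floor of 3 counts, the limit of what a 0 allows, was worth up to 2.51 CPM (counts scaled to library size) in knockout replicate 3 and at most 0.424 CPM in each of the other 5 libraries. Genes that overlap ribosomal RNA sequence held 0.871 to 7.58% of counts in the knockout, highest in replicate 3, and 0.233 to 0.614% in the control. Cytosolic ribosomal protein genes held 2.35 to 6.51% in the knockout, highest in replicate 1, and 2.66 to 4.14% in the control. Spearman correlations were 0.906 to 0.956 within the knockout and 0.958 to 0.973 within the control. Knockout replicate 2 correlated at 0.964 to 0.975 with the controls and at 0.956 and 0.933 with the other knockout libraries. No pair of libraries had counts alike within sampling noise.

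The labelled material was checked against marker genes. Of 12 stem cell markers, 4 were at 0 in all 6 libraries, Pou5f1 among them, and Nanog reached 0.485 CPM at most. The stem cell sum was 7.36 to 20.3 CPM in the knockout and 6.53 to 9.61 CPM in the control. Primitive streak and endoderm markers summed to at most 1.65 CPM in any library. The 12 markers of fibroblasts and mesenchyme, Col1a1 and Vim (vimentin) among them, summed to 14060 to 21580 CPM in the knockout and 18730 to 23760 CPM in the control. Other lists were detected at lower sums. Blood markers had 99.3 to 179 CPM in the knockout and 96.3 to 124 CPM in the control. Osteoblast markers had 111 to 131 and 101 to 122 CPM, and neural markers 25.4 to 76.5 and 44.0 to 68.3 CPM. The fibroblast and mesenchyme list thus had the highest sum, with little from the stem cell, primitive streak and endoderm markers. A sum depends on how abundant the markers of its list are, so it is not a share of cells. The name embryoid bodies is that of the labels, and these markers cannot settle it. In material of several cell types, fewer cells of a type and less RNA per cell cannot be told apart.

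The deleted gene and its partners came first. Mettl14 (ENSMUSG00000028114.16, GENCODE M21 on GRCm38, chromosome 3, 123368297 to 123386108) had 16.1, 22.6 and 19.2 CPM in the knockout and 16.3, 17.6 and 16.3 CPM in the control. The groups overlapped, with a log2 fold change of 0.21 ± 0.31 (SE, n = 3 each). Mettl14 RNA was thus not lower in the knockout. Counts over the whole gene can lie outside the deleted exons, so they do not test for the deletion. Whether the deletion was complete in these samples was not tested. Mettl3 differed by -0.02 ± 0.31 and Wtap, the regulatory subunit, by 0.09 ± 0.24 on the log2 scale (SE, n = 3 each), and both overlapped.

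No gene passed an adjusted p of 0.05 among 13088 tested by edgeR's quasi-likelihood test. DESeq2 called 0, as did limma voom with sample weights. The background share called was 0% in either direction. At an unadjusted p under 0.05 there were 292 genes (2.23% of those tested, where chance gives 5%), 183 higher (1.4%) and 109 lower (0.833%) in the knockout. At that level DESeq2, which tested 24561 genes, gave 560 (2.28%), and voom gave 924 of the same 13088 (7.06%). All 3 knockout libraries lay above all 3 controls in 443 genes (3.38%) and below them in 528 (4.03%). The median log2 fold change of all genes was 0.02, and 52.2% were positive. Scaled by library totals without TMM, the 335 genes at p under 0.05 were 100 higher and 235 lower, and the median of all genes moved to -0.09. The values given below for the fit of all 6 libraries are therefore levels and differences without a call, and a group of genes is described by its counts beside these background shares.

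Noncoding genes were prominent among the smallest unadjusted p-values, beside the protein-coding Prg4 described below. Gm23935, annotated as a microRNA gene of chromosome 16, had 5930, 7122 and 61036 CPM in the knockout and 1393, 4176 and 2403 CPM in the control (log2 fold change 3.22 ± 0.72, SE, n = 3 each). Gm26917 and Gm42418, neighbours on chromosome 17 in ribosomal RNA sequence, differed by 2.67 ± 0.62 and 2.72 ± 0.67. In all 3 genes the knockout libraries lay above the controls, and knockout replicate 3 stood far above the other 2. Rprl3, a gene of ribonuclease P RNA-like sequence, had 25.8, 21.2 and 1427 CPM in the knockout and 13.2, 13.2 and 17.5 CPM in the control. The mitochondrial ribosomal RNA mt-Rnr2 had 11253, 11310 and 22024 CPM in the knockout and 6162, 9148 and 6003 CPM in the control, a difference of 1.06 ± 0.31 on the log2 scale. Without knockout replicate 1, edgeR called 12 genes, all higher. They were, named after their values were seen, Gm23935, Gm26917, Gm42418, Lars2, Rprl3, Rn7sk, Rn7s2, Snord17, Scarna2, Gm24187, Gm24270 and Gm23804, and no other single library left out gave a call.

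The knockout libraries also differed from one another along gene length. Among protein-coding genes split into 5 classes by exon length, the shortest class (204 to 2652 bases) had a median of 0.40 in knockout replicate 1, 0.03 in replicate 2 and -0.28 in replicate 3, as log2 of each library over the control mean. The longest class had -0.28 in replicate 1, -0.04 in replicate 2 and 0.18 in replicate 3. Replicates 1 and 3 thus lay on opposite sides of the control mean in both classes, and replicate 2 lay close to it. The part of length or RNA composition in any result below was not tested.

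**Figure D1:**
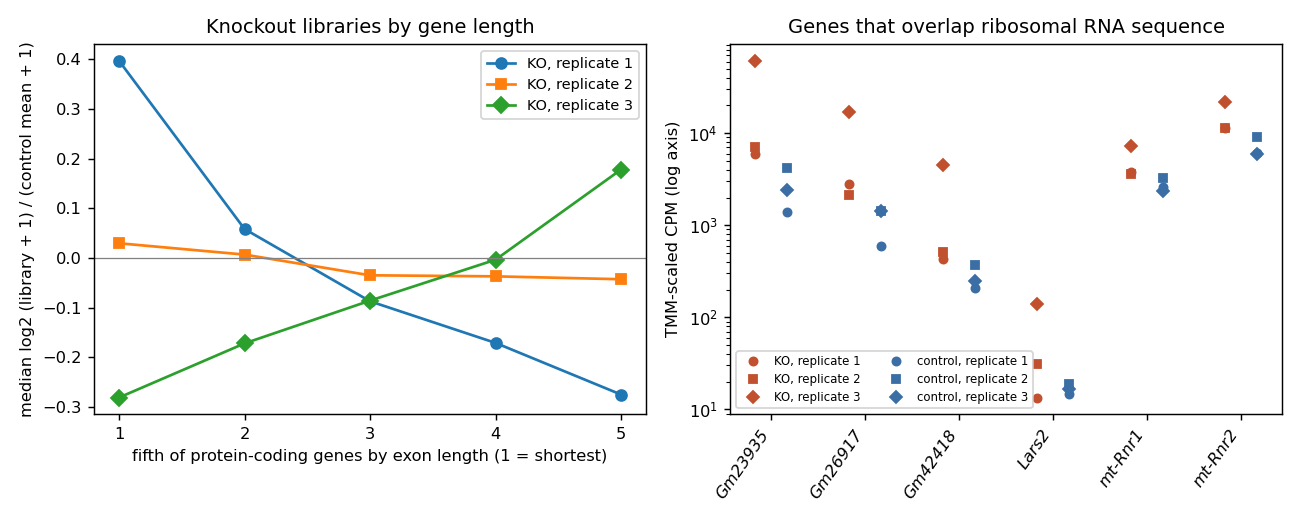
Left: median log2 ratio of each knockout library to the mean of the controls (pseudocount 1 CPM) for 5 classes of protein-coding genes from shortest to longest exon length. Right: TMM-scaled CPM on a log axis, knockout left of control, for genes that overlap ribosomal RNA sequence; knockout replicate 1 is at 0.40 in the shortest class and -0.28 in the longest, replicate 3 runs the other way, and replicate 3 is highest in all 6 genes.

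The cytosolic ribosomal proteins showed how much 1 library can carry. Of 82 members 78 were tested and all 78 had a positive log2 fold change, with a median of 0.44 against 0.02 for all genes. By library the median was 1.11 in knockout replicate 1, 0.04 in replicate 2 and -0.27 in replicate 3. Without replicate 1, 21 of 79 were positive and the median was -0.11. Rps14 had 838, 341 and 244 CPM in the knockout and 169, 247 and 363 CPM in the control, so only replicate 1 exceeded every control. Subunits of the nuclear-encoded respiratory chain behaved alike by library, with 67 of 76 positive and a median of 0.35 in all libraries, and -0.19 without replicate 1. Many ribosomal protein genes have processed pseudogenes, and reads shared with them make single values uncertain.

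Cholesterol synthesis was the list with the most members at an unadjusted p under 0.05. All 21 enzymes were tested and 20 had a positive log2 fold change, with a median of 0.53 against 0.02 for all genes. In this list 9 were higher and 1 was lower at p under 0.05, beside background shares of 1.4% and 0.833%. In 7 of the 21 every knockout library exceeded every control, beside 3.38% of all genes. None passed the adjusted test. The library medians were 0.57, 0.64 and 0.21 in knockout replicates 1, 2 and 3. Leaving out single libraries put the median between 0.41 and 0.57. The number higher at p under 0.05 was 11 without knockout replicate 3, where 3.11% of all genes were, and 3 without control replicate 2, where 0.817% were. It was 6 without knockout replicate 1 (1.97% of all genes), 4 without knockout replicate 2 (1.89%), 4 without control replicate 1 (0.885%) and 6 without control replicate 3 (2.11%).

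The promoters of 3 of these enzymes are shown because 20 of the 21 differences are positive and most of the promoters hold the same short motif. Sterol-regulated genes are known to be switched on by SREBP2, which works with the factor NF-Y at the CCAAT box. RefSeq windows (GRCm38.p6) run from 250 bases before to 50 bases after the annotated start. Capitals mark CCAAT or its reverse complement ATTGG, and in Hmgcs1 also TCACNCCAC, a sterol response element consensus, searched on both strands. Idi1 lies at chr13:8885356-8885655 (plus strand), Sc5d at chr9:42264251-42264550 (minus strand) and Hmgcs1 at chr13:119690101-119690400 (plus strand).
Idi1: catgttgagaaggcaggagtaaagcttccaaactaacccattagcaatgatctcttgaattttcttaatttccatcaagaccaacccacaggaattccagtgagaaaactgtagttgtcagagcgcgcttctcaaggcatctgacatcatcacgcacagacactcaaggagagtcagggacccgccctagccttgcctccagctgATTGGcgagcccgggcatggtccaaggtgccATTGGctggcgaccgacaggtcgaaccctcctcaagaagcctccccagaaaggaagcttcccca
Sc5d: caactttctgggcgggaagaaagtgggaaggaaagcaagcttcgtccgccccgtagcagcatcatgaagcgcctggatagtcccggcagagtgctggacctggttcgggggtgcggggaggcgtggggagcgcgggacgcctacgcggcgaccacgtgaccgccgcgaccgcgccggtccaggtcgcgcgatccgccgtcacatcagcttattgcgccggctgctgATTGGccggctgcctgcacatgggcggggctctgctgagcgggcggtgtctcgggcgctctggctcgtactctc
Hmgcs1: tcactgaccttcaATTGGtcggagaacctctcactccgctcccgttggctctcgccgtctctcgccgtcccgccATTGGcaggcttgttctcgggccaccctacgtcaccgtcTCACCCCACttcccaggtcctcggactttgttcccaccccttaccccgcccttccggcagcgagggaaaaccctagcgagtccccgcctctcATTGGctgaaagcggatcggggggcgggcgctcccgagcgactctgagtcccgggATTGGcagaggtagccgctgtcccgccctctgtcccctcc

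The letters CCAAT were found on either strand in 15 of the 16 enzymes that have an entry in the promoter table, Acat2 being the exception. They were thus present in Ggps1, the single enzyme with a negative difference, and absent from Acat2, which had a positive one. A part of the motif in the differences was not tested. The same letters were found in 41.1% of all 27025 genes with a promoter and in 42.8% of the 9632 tested genes with one. The sequences above hold 2 matches in Idi1, 1 in Sc5d and 4 in Hmgcs1. TCACNCCAC was in 1 of the 16, Hmgcs1, and in 1.44% of all genes. The promoters of the other enzymes, Fdps, Fdft1 and Sqle among them, were not analysed here. A match describes the letters of a 300-base window and is not evidence of binding.

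The early, mevalonate section of the pathway held the widest range. Idi1, which isomerises isopentenyl diphosphate, had 71.6, 108 and 43.5 CPM in the knockout and 53, 36.7 and 20.8 CPM in the control. Replicate 3 of the knockout lay below the highest control, so its log2 fold change of 1.04 ± 0.36 (SE, n = 3 each) rests on groups that overlap. Acat2, which makes acetoacetyl-CoA, differed by 0.72 ± 0.27 and Mvd, the mevalonate diphosphate decarboxylase, by 0.73 ± 0.32, both without overlap. Hmgcs1, the HMG-CoA synthase, had 182, 206 and 119 CPM in the knockout and 132, 124 and 101 CPM in the control, with overlap. The single negative member was Ggps1, which makes geranylgeranyl diphosphate on a branch away from sterols. It had 28.4, 28.1 and 15.9 CPM in the knockout and 49.8, 35.6 and 36.3 CPM in the control, and all knockout libraries lay below the controls (-0.70 ± 0.30).

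The later, squalene-to-cholesterol steps had positive differences. Fdft1, squalene synthase, had 276, 254 and 247 CPM in the knockout and 165, 171 and 176 CPM in the control. The groups stood well apart, with a log2 fold change of 0.60 ± 0.21 (SE, n = 3 each; adjusted p = 1.00 by edgeR), and 0.55 to 0.63 when single libraries were left out. Sc5d, the lathosterol desaturase, had 89.9, 69.6 and 77.0 CPM in the knockout and 56.5, 48.5 and 44.9 CPM in the control (0.66 ± 0.24). Sqle (squalene epoxidase) at 0.46 ± 0.23 and Cyp51 (lanosterol demethylase) at 0.41 ± 0.22 also had every knockout library above every control. Tm7sf2 (0.92 ± 0.38) and Msmo1 (0.59 ± 0.25) overlapped. Lss, Dhcr7 and Ebp, at 0.32, 0.38 and 0.19, overlapped too.

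**Figure D2:**
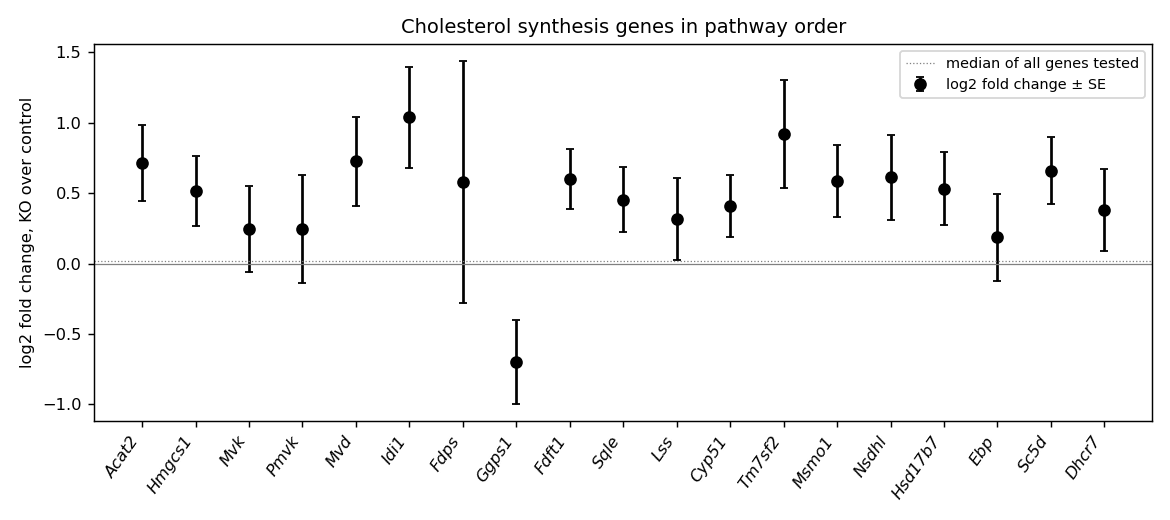
Log2 fold change of the knockout over the control with its SE (n = 3 each) for 19 of the cholesterol synthesis genes, from acetyl-CoA on the left to cholesterol on the right; the dotted line is the median of all genes tested. Of those plotted, all but Ggps1 at -0.70 lie above 0, and Idi1 at 1.04 is the highest.

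Sterol sensing and transport genes were mixed. Of 21 tested, 11 were positive, with a median of 0.03. At p under 0.05, 1 was higher and 1 lower, beside 1.4% and 0.833% of all genes. Insig1, which holds the SREBP complex in the endoplasmic reticulum and is itself a target of SREBP, had 100, 96.9 and 100 CPM in the knockout and 70.1, 63.4 and 66.2 CPM in the control (0.58 ± 0.22). Abcg1, a sterol exporter induced by the oxysterol receptor LXR, had 38.8, 29.3 and 51.0 CPM in the knockout and 70.7, 64.1 and 61.8 CPM in the control (-0.75 ± 0.27). Neither gene overlapped between groups. Srebf2, which encodes SREBP2, differed by 0.08 ± 0.26, with overlap. Among 12 fatty acid synthesis genes Elovl6, a fatty acid elongase, was the only one at p under 0.05 (0.64 ± 0.28), beside 2.23% of all genes.

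Collagen VI stood out in the matrix lists. Type VI collagen forms beaded microfilaments around cells from 3 chains. Col6a2 (chromosome 10, 76595762 to 76623630) had 190, 169 and 220 CPM in the knockout and 315, 358 and 362 CPM in the control. Its neighbour Col6a1 had 244, 202 and 339 CPM in the knockout and 381, 437 and 450 CPM in the control. Both had every knockout library below every control, with log2 fold changes of -0.84 ± 0.22 and -0.70 ± 0.25 (SE, n = 3 each). The third chain, Col6a3 on chromosome 1, had 349, 573 and 736 CPM in the knockout and 714, 1181 and 624 CPM in the control, with overlap. The fibrillar collagens Col1a1 (-0.29) and Col3a1 (-0.11) overlapped. Of 12 tested members of the list 3 were positive and the median was -0.32. At p under 0.05, 2 were lower, both in collagen VI, beside 0.833% of all genes. The list's library medians were -0.54, -0.56 and -0.05, and without knockout replicate 3 its median was -0.45 with 5 lower, where 2.42% of all genes were lower.

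Basement membrane genes were mostly negative as well. Of 17 tested, 3 were positive, with a median of -0.23. Nid1 (nidogen 1, a linker of laminin and collagen IV) was the 1 at p under 0.05 and was lower, beside 0.833% of all genes. Nid1 had 104, 204 and 223 CPM in the knockout and 325, 329 and 197 CPM in the control. Library medians ran from -0.75 in replicate 1 to 0.24 in replicate 3, and the list's median was -0.64 without replicate 3 and -0.03 without replicate 1. Prg4, which encodes lubricin, had 32.6, 34.4 and 19.2 CPM in the knockout and 59.4, 209 and 63.5 CPM in the control. No libraries overlapped, but control replicate 2 was the highest by far, and leaving it out changed the log2 fold change of -1.90 ± 0.43 to -1.06. Acta2, the actin of smooth muscle and myofibroblasts, had 14.7, 7.07 and 14.2 CPM in the knockout and 13.7, 48.8 and 35.0 CPM in the control (-1.48 ± 0.44), with overlap.

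**Figure D3:**
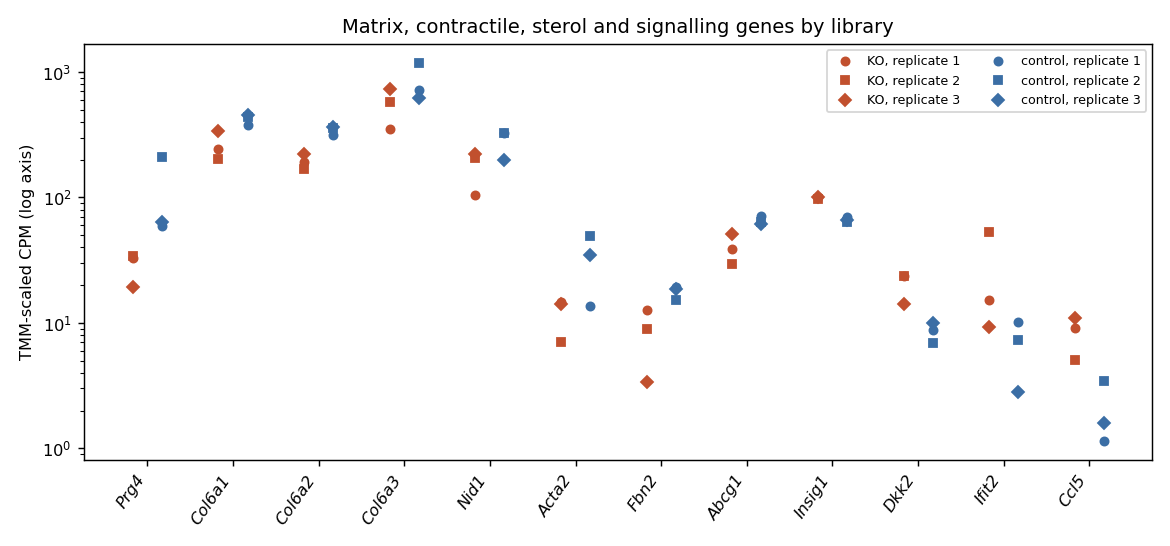
TMM-scaled CPM on a log axis in the 6 libraries, knockout left of control, for matrix, contractile, sterol and signalling genes. Col6a2, Col6a1, Abcg1 and Prg4 are lower and Insig1, Dkk2 and Ccl5 higher in the knockout without overlap, while Col6a3, Acta2 and Ifit2 overlap.

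The interferon response list had the highest median, 0.63, with 22 of 27 tested members positive, but its libraries did not move together. Knockout replicate 2 had a library median of 0.85, replicate 1 had 0.16 and replicate 3 had -0.51. Ifit2, which restricts viral translation, had 15.2, 53.2 and 9.20 CPM in the knockout and 10.2, 7.29 and 2.82 CPM in the control. Its log2 fold change of 2.00 ± 0.57 became 0.87 without replicate 2. In the list 2 members were higher at p under 0.05 and 0 were lower, beside 1.4% and 0.833% of all genes. Macrophage markers summed to 27.6 to 96.2 CPM in the knockout and 19.6 to 53.2 CPM in the control, and none of the 7 was at 0 in all libraries. Their part in the result was not tested. The chemokine Ccl5 was higher without overlap, at 9.10, 5.09 and 10.9 CPM in the knockout and 1.15, 3.41 and 1.60 CPM in the control (1.98 ± 0.66).

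By size, the protein-coding genes that were highest without overlap included a linker histone and a Wnt modulator. Dkk2, an extracellular modulator of Wnt signalling, had 23.5, 23.5 and 14.2 CPM in the knockout and 8.70, 6.94 and 9.89 CPM in the control (1.29 ± 0.36). Hist1h1e, a linker histone, differed by 2.32 ± 0.67, and by 1.21 without knockout replicate 3, where it had 37.7 CPM; near-identical copies make histone counts uncertain. Dgat2, which makes triglycerides, differed by 1.30 ± 0.45 and Atp8a1, a phospholipid flippase, by 1.80 ± 0.62. Alkbh6 (1.24), Saysd1 (1.22), Mthfs (1.18) and Slc36a2 (1.13) completed the 8. The 8 lower genes were Prg4, Lipe (hormone-sensitive lipase, -1.57), the palmitoyltransferase Zdhhc7 (-1.43), Ss18l1 (-1.27), Cadm3 (-1.26), Mid2 (-1.24), Rogdi (-1.23) and Sult4a1 (-1.22). Cadm3 had 6.79, 8.20 and 0.837 CPM in the knockout and 14, 14.8 and 14.3 CPM in the control, so replicate 3 of the knockout lay far below the others. That value is 1 count. In the same library Lipe had 1 count and Zdhhc7 and Ss18l1 had 3 each, so these values do not exceed the floor of 3 counts. These 16 were picked for the size of their difference, which is therefore a description.

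**Figure D4:**
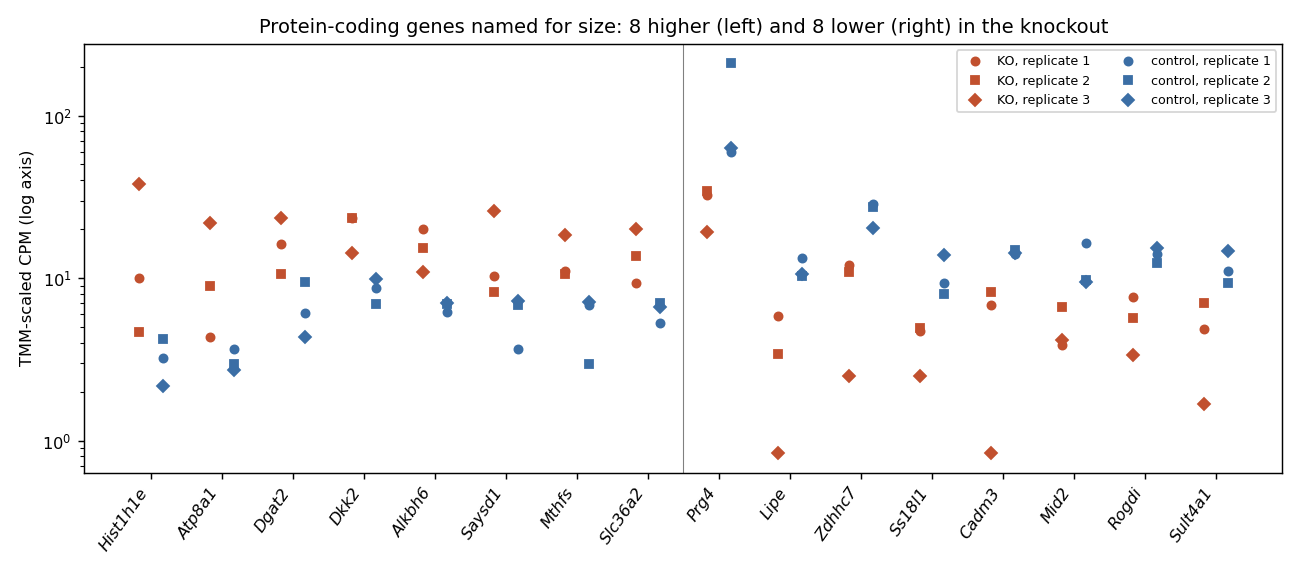
TMM-scaled CPM on a log axis for the 16 protein-coding genes named by size, knockout left of control. All groups separate by the rule, Dkk2 lies between 14.2 and 23.5 CPM in the knockout against 6.94 to 9.89 in the control, and several genes have 1 knockout library far from the other 2, Hist1h1e and Cadm3 among them. The low Cadm3 value is 1 count.

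A further 3 genes had no count in any knockout library and at least 10 counts in each control, a rule set after values were seen, and 0 genes had the reverse. Sh2d6, with 17, 28 and 13 counts in the control, was at least 11.5-fold lower in the knockout against a floor of 3 counts over the group. Tescl, with 20, 11 and 16 counts, was at least 9.29-fold lower. 5330437M03Rik, with 12, 12 and 10 counts, was at least 6.72-fold lower. Their control levels were 0.942 to 3.29 CPM, and the knockout floor was 0.182 CPM. The reverse rule asks for 10 counts in knockout replicate 3, where 3 counts alone are worth 2.51 CPM, against at most 0.353 CPM in the controls. Genes at the levels of these 3 could therefore not have been found in reverse, and the 0 says nothing about direction.

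The chromatin and m6A lists held few differences at an unadjusted p under 0.05, where 2.23% of all genes were. At that share lists this short hold few or none, so the counts show nothing particular to their members. Of 11 m6A writer genes and 13 readers and erasers, 0 were at p under 0.05 in either direction, with medians of -0.04 and 0.12. Of 11 PRC2 genes tested 0 were, with a median of 0.07, and of 20 genes of Polycomb repressive complex 1 0 were, with a median of -0.09. Ezh2 had 11, 15.3 and 6.69 CPM in the knockout and 15.8, 10.1 and 10.7 CPM in the control. Kdm6b had 53, 53.6 and 132 CPM in the knockout and 64.6, 89.5 and 75.5 CPM in the control, so replicate 3 stood above all controls and the other 2 below them. Developmental regulators known as Polycomb targets (34 tested of 54), HOX genes (31 of 39) and imprinted genes (19 of 27) held 0 genes at p under 0.05, with medians of -0.09, 0.03 and 0.04. Kmt2b, an H3K4 methyltransferase, was the 1 gene at p under 0.05 among 9 demethylases and opposing enzymes. It had 33.6, 39.0 and 46.9 CPM in the knockout and 49.5, 77.0 and 59.9 CPM in the control (-0.66 ± 0.27).

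**Figure D5:**
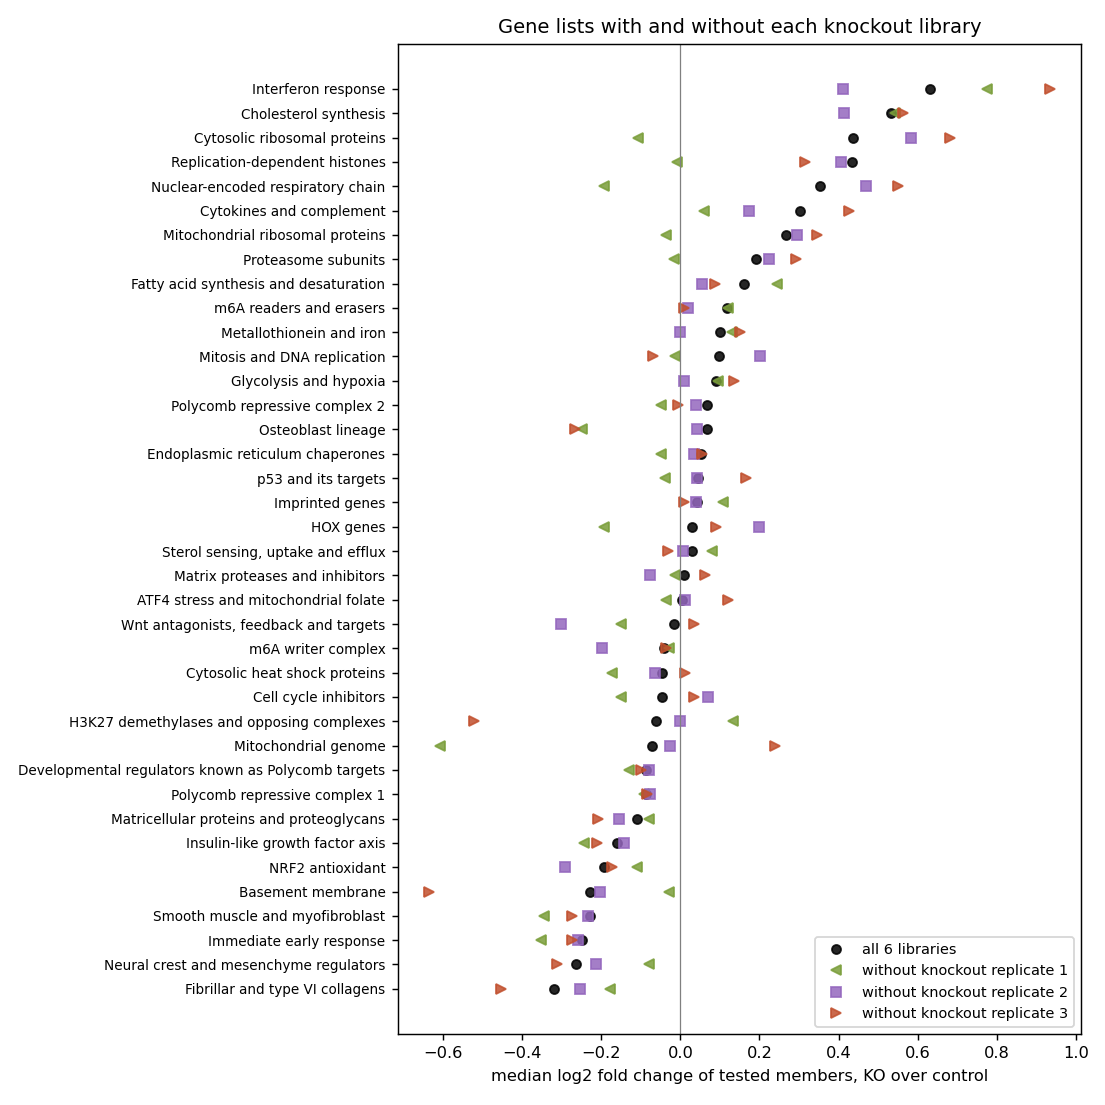
Median log2 fold change (knockout over control) of the tested members of 38 gene lists with all 6 libraries and without each knockout library. Cholesterol synthesis stays between 0.41 and 0.56, whereas cytosolic ribosomal proteins change sign, at -0.11 without knockout replicate 1.

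Among the remaining lists 0 to 3 members each were at p under 0.05, beside 1.4% of all genes higher and 0.833% lower. Immediate early genes (20 tested) had 2 lower, Egr3 (-0.86 ± 0.38) and Klf6 (-0.54 ± 0.24), and a median of -0.25 that was alike in the 3 knockout libraries (-0.21, -0.28 and -0.28). Gclc, the first enzyme of glutathione synthesis, had 77.0, 86.3 and 56.9 CPM in the knockout and 127, 119 and 93.0 CPM in the control. The p53 target Gdf15, a stress-induced cytokine, had 12.9, 8.34 and 8.37 CPM in the knockout and 5.50, 3.76 and 4.43 CPM in the control (1.13 ± 0.48). Neither overlapped between groups. Igf1r, the IGF1 receptor, had 109, 88.0 and 140 CPM in the knockout and 165, 149 and 163 CPM in the control (-0.51 ± 0.23). The 20 matrix proteases and inhibitors split, with Mmp16 (0.70 ± 0.28) and Mmp23 (0.82 ± 0.34) higher and their inhibitor Timp3 (-0.49 ± 0.23) lower at p under 0.05.

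Several lists held no gene at that level. They were cell cycle inhibitors (6 tested, median -0.05), ATF4 stress and mitochondrial folate genes (18, 0.01), endoplasmic reticulum chaperones (16, 0.05), cytosolic heat shock proteins (14, -0.05), metallothionein and iron genes (9, 0.10), glycolysis and hypoxia (23, 0.09), mitosis and DNA replication (20, 0.10), neural crest and mesenchyme regulators (16, -0.26) and proteasome subunits (36, 0.19). The other lists had few, to be set beside 1.4% of all genes higher and 0.833% lower. Replication-dependent histones had 3 higher of 17 tested and a median of 0.43, and -0.01 without knockout replicate 1. Mitochondrial ribosomal proteins had 3 higher of 77 and a median of 0.27. In several of them only knockout replicate 1 exceeded every control. Mrpl52, 1 of these, had 216, 80.5 and 58.6 CPM in the knockout and 53.6, 64.5 and 125 CPM in the control. In others, Mrpl55 and Mrps33 among them, every knockout library exceeded every control. Matricellular proteins had 2 lower of 22, Fbn2 (fibrillin 2) and Eln (elastin), with a median of -0.11, and smooth muscle genes 2 lower of 10, Acta2 and Myl9, with a median of -0.23. Osteoblast genes had 1 lower of 9, Wnt genes 1 higher of 19 and cytokines and complement 1 higher of 16. Genes of the mitochondrial genome had 1 higher of 13, mt-Nd6, which had 277, 170 and 679 CPM in the knockout and 178, 191 and 177 CPM in the control.

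The knockout effect was set against that of Mettl3, the catalytic partner, in a fit of 12 libraries that tests the difference of the effects. Of 16126 genes 1 passed (0.0062%), and 938 (5.82%) had an unadjusted p under 0.05. That gene was C3, complement component 3, named after its values were seen. C3 had 161, 263 and 255 CPM in the Mettl14 knockout and 258, 351 and 214 CPM in its control, with overlap. In the Mettl3 line it had 47, 40 and 28 counts in the knockout and 0 counts in all 3 controls, so the Mettl3 knockout was at least 38.4-fold higher against a floor of 3 counts over the group. The Mettl14 effect minus the Mettl3 effect was -7.96 ± 0.87 (SE; adjusted p = 0.000408 by edgeR), a size that depends on the prior count. C3 was abundant in the Mettl14 line and nearly absent in the Mettl3 line, where the difference rested on the 0 counts of the controls. Its cause was not tested. In this fit the difference did not pass for the genes described above. Fdft1 differed by 0.58 in the Mettl14 knockout and 0.14 in the Mettl3 knockout (adjusted p of the difference 0.843 by edgeR), Col6a2 by -0.86 and -0.14 (0.812), and Abcg1 by -0.78 and -0.74 (0.996).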

How the data were processed

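Groups came from the labels. The authors deposited unnormalised counts for 54446 gene identifiers, of which 54409 matched GENCODE M21. RNA was taken with Trizol and poly(A)-selected, and libraries used the SMARTer Stranded Total RNA-Seq kit, per the labels' protocols. Reads were processed with CASAVA, Trimmomatic 0.38, HISAT2 2.1.0 (mm10) and HTSeq, per the submitters' processing notes. The sources used here do not name the annotation release or the strand setting, so overlapping and antisense genes may share counts.

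The 6 libraries were fitted in R 4.3.3 by edgeR 4.0.16 (low-count filter filterByExpr, TMM, quasi-likelihood F test, Benjamini-Hochberg adjustment); n is 3 per group, the SE is the log2 fold change over the square root of F, and CPM are TMM-scaled. The common biological coefficient of variation was 0.327. The difference from the Mettl3 knockout used 12 libraries, so its log2 values differ slightly. Alternatives were DESeq2 1.42.0, limma 3.58.1 voom, other filters and scalings, thinning to 1303697 counts, a replicate block and leaving out libraries; the unscaled totals were added after seeing the data. The scripts were tested on simulated data. Library medians use a pseudocount of 1 CPM, floors 3 counts, and floors cover counting error only.

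The 38 lists, the markers and the members were chosen with earlier results of these data known, so no list has a test. Named genes are Mettl14, Mettl3, Wtap, Ezh2, Kdm6b, up to 8 protein-coding genes per direction with the largest difference (at least 10 CPM in the higher group, unadjusted p under 0.05, no overlap), up to 3 members of each list with the smallest p, and genes that overlap ribosomal RNA. Some list members are not reported here, though counts and medians include them. Other list members were named after their values were seen. Figures used Python 3.11.15 and matplotlib 3.10.9.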

Additional observations from a re-analysis of the deposited data

Results flagged for a closer look

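C3, complement component 3, was flagged because its knockout effect differed between the Mettl14 and the Mettl3 line in a test of that difference (adjusted p = 0.000408 by edgeR's interaction term). It was lower in 1 of 3 Mettl14 knockout libraries than in every control of that line, and higher in 3 of 3 Mettl3 knockout libraries, where all 3 controls had 0 counts. With TMM scaling over the 12 libraries of both lines, the pooled level in the Mettl3 knockout was 1.39 CPM, against group means of 233 CPM in the Mettl14 knockout and 287 CPM in the Mettl14 control.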

How the results depend on the processing

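The count of called genes was 0 in the comparison and stayed 0 with RLE size factors, DESeq2, voom, a 10 CPM filter, a replicate block, all 9 libraries of the line, ribosomal and mitochondrial genes left out, thinned counts and unscaled totals. It was 20 without the low-count filter and 0 to 12 when single libraries were left out. Of the 20, 18 were higher and 2 were lower, Prg4 and Acta2. The 18 included Rprl3, Gm23935, Gm26917, Gm42418, Rn7sk and Rn7s2 beside Ifit1, Ifit2 and Hist1h1e. At an unadjusted p under 0.05, the 292 genes (2.23% of 13088) compare with 560 by DESeq2 (2.28% of 24561), 924 by voom (7.06% of 13088), 817 without the filter (3.33% of 24561), 176 with the 10 CPM filter (1.96% of 8998) and 157 with the replicate block (1.2% of 13088), and with 177 to 761 (1.29 to 5.53%) when single libraries were left out, highest without knockout replicate 3. Same-numbered libraries did not deviate together (correlations of -0.21, 0.14 and -0.25). With 3 libraries per group this cannot tell whether the numbers pair the samples. The difference from the Mettl3 knockout had 46 calls without the filter, 4 with DESeq2 and 1 to 10 with single libraries left out. Genes described above were among them. Without the filter they included Prg4, Rps14, Fbn2, Lars2, Gm23935, Gm26917, Gm42418, Rprl3 and mt-Rnr2. Fbn2 was also called with DESeq2, and Fbn2, Lars2, Gm23935, Gm26917, Gm42418 and Rprl3 without knockout replicate 1. Small changes turned sign. Mettl3 was 0.16 after thinning and -0.13 to 0.063 with libraries left out, and Wtap was -0.023 unscaled and -0.029 to 0.14. Ezh2 was 0.26 with voom and -0.42 to 0.13. Kdm6b was -0.42 with voom, -0.019 without the filter, -0.084 with the block, -0.024 after thinning, -0.11 unscaled and -0.52 to 0.22. The cause of these moves was not tested. Depth limits low genes most in knockout replicate 3.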
